A study of Mus musculus with 10 samples.

Results

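Transcript levels of wild-type (WT) type 2 conventional dendritic cells (cDC2) from the spleen were compared between mice given sheep red blood cells (SRBC) and untreated mice. The comparison rests on 5 of the study's 10 arrays, chosen by their titles: WT untreated 1 and 2, and WT SRBC 1, 2 and 3. The treated mice had received 200000000 SRBC by the intraperitoneal route 24 hours before the spleens were taken, and the untreated mice were at steady state. Cells were sorted after enzymatic digestion of the spleen and enrichment of CD11c+ cells, a step that both groups shared. The other 5 arrays were of Notch2-11cKO mice (CD11c-Cre Notch2f/f, in which Cre under the CD11c promoter acts on floxed Notch2 alleles in CD11c-expressing cells), 2 untreated and 3 after SRBC, and they entered the shared estimate of spread and 1 comparison at the end. Strain, age and the number of mice behind an array are not given in the sources used here. Separate mice are not stated for the replicates, and the p-values therefore measure only the spread between these samples, which may be technical.

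Conventional dendritic cells of the spleen take up particles from blood, mature, and move to the border of the B cell follicle and the T cell zone. There cDC2 present peptides on MHC class II to CD4 T cells and start the follicular helper T cell response that drives germinal centres. SRBC are a particulate foreign antigen given without added adjuvant, and are widely used to raise such a response. Maturation of a dendritic cell is known to raise the chemokine receptor CCR7, costimulatory proteins and survival genes, and to lower synthesis of new class II molecules.

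Levels are log2 intensity, differences are SRBC minus untreated on the log2 scale with the standard error of the fit (n = 3 and 2), and p-values are limma's, adjusted over all genes. A gene was called at an adjusted p below 0.05. Median intensity lay between 30.1 and 31.3 on the 5 WT arrays. Over the 9969 brighter genes Pearson r was 0.982 between the untreated arrays and 0.984 between WT SRBC 2 and 3, but 0.929 and 0.928 between WT SRBC 1 and those arrays. Of 11 markers of cDC2, all lay above the median level of all genes in their mean over the 5 WT arrays. Itgax (CD11c), the protein used for enrichment, was 10.16 and 10.12 untreated and 9.02, 9.78 and 9.65 after SRBC, above that median on every WT array. The mean of the 11 markers was 9.17 and 9.22 untreated and 8.68, 8.71 and 8.64 after SRBC. Because whole sorted populations were measured, fewer cells of a kind and less RNA per cell cannot be told apart.

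After SRBC, 363 genes were higher and 393 lower among the 19938 measured, which is 1.82% and 1.97% (3.79% together). Whether called or not, 10850 of the 19938 genes had a difference above 0 and 9088 below 0. These shares are the background for the counts of each gene list below. The rises were larger and started lower. The median called rise was 1.22, from a median level of 5.91 to 7.50, and 250 of the 363 genes rose at least 2-fold, 61 at least 4-fold and 14 at least 8-fold. The median called fall was -1.07, from 7.46 to 6.30, with 232, 22 and 3 of the 393 genes at those folds. Before treatment, 103 of the genes called higher lay below the median level of all genes (5.06), and after it 39 did, whereas 16 of the genes called lower lay below it before and 73 after. On every called gene, the SRBC arrays lay all above or all below the untreated arrays, a pattern that 33.5% of all genes showed. WT SRBC 1 lay closest to the untreated mean for 166 of the 363 rises and 184 of the 393 falls.

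**Figure D1:**
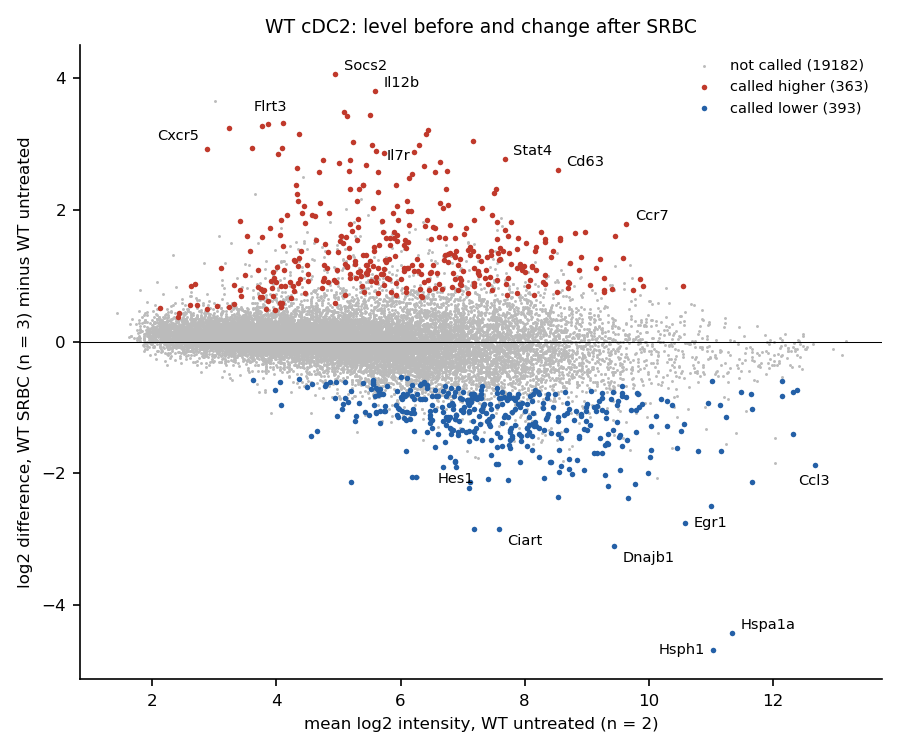
The x axis is the mean log2 intensity of the WT untreated arrays (n = 2) and the y axis the log2 difference of WT SRBC (n = 3) from it, with 1 point for each of 19938 genes. Red points (363) were called higher and blue points (393) lower; the red points reach 4.06 and start mostly at low to middle levels, while the blue points reach -4.69 and lie at middle to high levels.

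The number of calls depended on single arrays. Without WT untreated 1 or WT untreated 2, 101 or 199 genes were called, and without WT SRBC 1, 2 or 3 the counts were 1331, 407 and 387. With any 1 of the 10 arrays left out 78 genes were called each time, 41 higher and 37 lower. These included Socs2, Cd200, Flrt3, Cxcr5, Il7r, Cd63 and Hsf2 among the rises and Hsph1, Hspa1a, Dnajb1, Ciart, Ccl3, Hes1 and Oas2 among the falls. Beside each group of genes below, calls that a single omission ended are named with their adjusted p without that array.

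The largest rise was that of Socs2, a feedback inhibitor of cytokine signalling. It measured 4.91 and 4.98 untreated and 9.77, 8.42 and 8.83 after SRBC, a difference of 4.06 ± 0.41 (16.7-fold, adjusted p = 0.0006). Cd200, a surface glycoprotein that restrains myeloid cells, went from 4.92 and 5.25 to 9.06, 8.09 and 8.53 (3.48 ± 0.35), and Ly75, the endocytic receptor DEC-205, from 5.73 and 5.27 to 9.63, 8.41 and 8.79 (3.44 ± 0.34). On all 3 genes WT SRBC 1 was the highest array. Strip2, a scaffold protein linked to phosphatase complexes, had the same order, with 4.79 and 5.47 untreated and 9.63, 7.99 and 8.03 after SRBC (3.42 ± 0.43).

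Other large rises were even across the treated arrays. Flrt3, an adhesion protein and latrophilin ligand, was 4.11 and 4.09 untreated and 7.21, 7.58 and 7.47 after SRBC (3.32 ± 0.37, adjusted p = 0.00108). Pcgf5, a Polycomb complex component, was 6.04 and 6.55, then 9.35, 9.18 and 9.34 (2.99 ± 0.23, adjusted p = 9.92e-05). Serpinb6b, a protease inhibitor, was 6.32 and 6.49, then 9.19, 9.78 and 9.70 (3.15 ± 0.24, adjusted p = 9.92e-05). All 3 treated arrays of each gene lay more than 2 log2 units above both untreated arrays. Anxa3, an annexin (3.21 ± 0.27), Prnp, the prion protein (3.03 ± 0.26), and Adgrg6, an adhesion G protein-coupled receptor (2.88 ± 0.31), also rose. Cd24a, a heavily glycosylated surface protein, rose from 6.96 and 7.37 to 9.75, 10.46 and 10.43 (3.05 ± 0.42); leaving out WT untreated 1 ended its call (adjusted p = 0.0707).

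**Figure D2:**
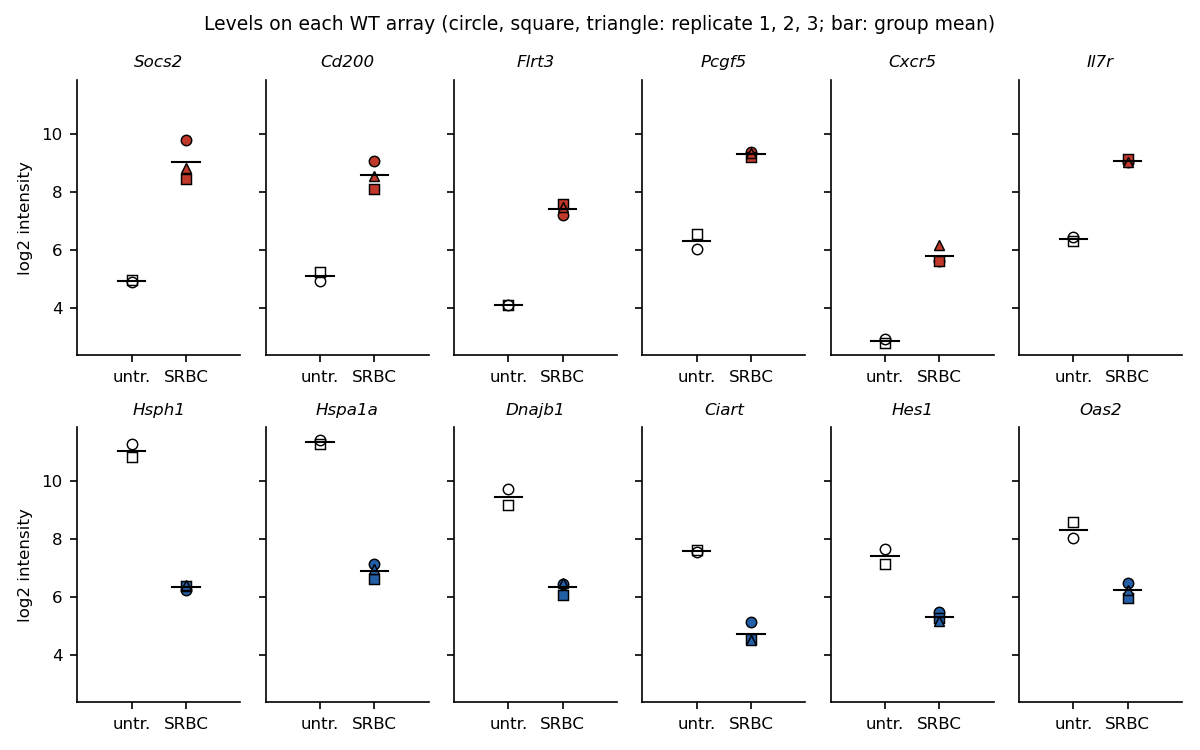
Each panel shows 1 gene, with its log2 intensity on the y axis for the 2 untreated (open) and 3 SRBC (filled) WT arrays; circles, squares and triangles are replicates 1, 2 and 3 and bars are group means. The upper 6 genes were called higher and the lower 6 lower. In no panel do the groups overlap, which holds for every called gene.

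Many listed genes of dendritic cell maturation rose. The list was chosen with earlier results of these data known, so its counts describe the response and do not test it. Of 41 measured members 22 rose and none fell, with a median difference of 1.25 against 0.02 over all genes. By role, 6 of 12 surface proteins, 5 of 8 genes of migration and cytoskeleton, 2 of 7 secreted factors and 9 of 14 genes of signalling and survival rose. Cd80, a costimulatory ligand of CD28, was 9.15 and 9.27 untreated and 10.55, 10.55 and 10.27 after SRBC (1.25 ± 0.17, adjusted p = 0.00306). Its relative Cd86 was 10.20 and 10.35, then 10.98, 11.19 and 11.08 (0.81 ± 0.27, adjusted p = 0.134), and Cd40 was 7.53 and 7.18, then 7.70, 7.74 and 7.84 (0.40 ± 0.35, adjusted p = 0.642). For Cd80, Cd86 and Cd40 alike every treated array lay above every untreated array, as in 17.8% of all genes, but only Cd80 passed the test. Ccr7, the receptor that guides mature dendritic cells towards T cell zones, rose from 9.47 and 9.81 to 11.90, 11.34 and 11.05 (1.79 ± 0.24). Serpinb9, an inhibitor of granzyme B, rose by 2.98 ± 0.43, the adenylyl cyclase Adcy6 by 1.95 ± 0.22 and the surface mucin Tmem123 by 1.60 ± 0.21. The list held 8 calls without WT untreated 1, and those of Cd80, Ccr7, Fscn1, Serpinb9 and Tmem123 were lost (adjusted p from 0.0605 to 0.0943). The mean of the 41 genes was 7.21 and 7.28 untreated and 9.02, 8.50 and 8.56 after SRBC, so WT SRBC 1 was the furthest from the untreated arrays here.

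**Figure D3:**
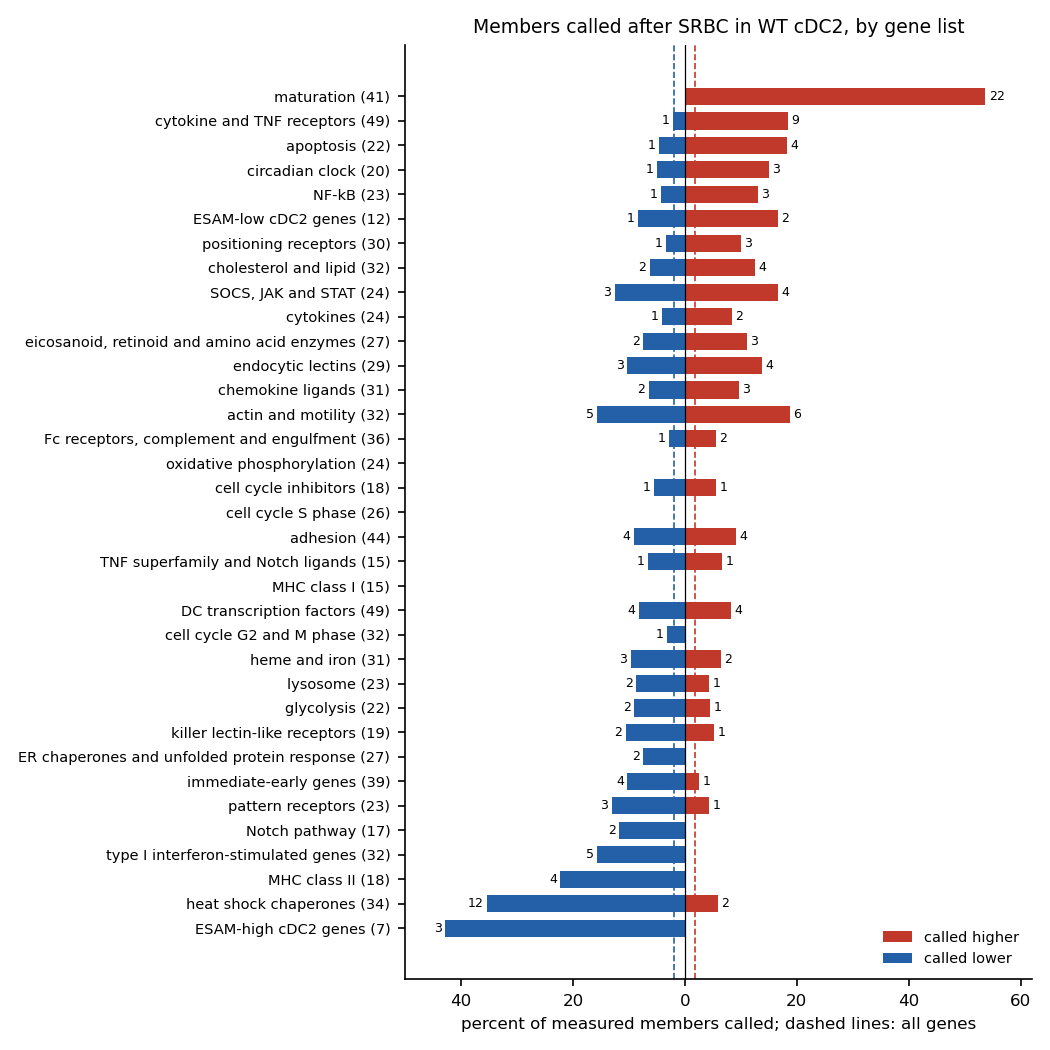
Bars give the percent of measured members of each of 35 gene lists (members measured in parentheses) that were called higher (red, to the right) or lower (blue, to the left), with the number called at the bar's end and dashed lines at 1.82% and 1.97%, the shares over all genes. Maturation has the longest bar to the right (22 of 41), and heat shock chaperones (12 of 34) and the small ESAM-high list (3 of 7) the longest to the left. The lists were chosen with earlier results of these data known, so the bars are a description.

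Of 24 cytokine genes, Il12b and Il6 rose and Ltb fell. Il12b, the p40 chain shared by IL-12 and IL-23, was 5.19 and 5.99 untreated and 10.56, 8.58 and 9.01 after SRBC (3.80 ± 0.52, 13.9-fold, adjusted p = 0.00277). Il6 went from 3.37 and 3.11 to 6.13, 6.32 and 6.99 (3.24 ± 0.46). The chains that pair with p40 did not follow: Il12a (p35) was 4.61 and 4.63, then 4.48, 4.60 and 4.50, and Il23a (p19) was 4.39 and 4.12, then 4.34, 4.37 and 4.05, with adjusted p of 0.763 and 0.996. Ltb, a lymphotoxin chain that forms a membrane ligand with lymphotoxin alpha, fell from 8.17 and 8.07 to 7.31, 6.08 and 6.04 (-1.64 ± 0.40). Il10 measured 7.02 and 7.12 and then 4.96, 5.36 and 5.92 (-1.66 ± 0.77, adjusted p = 0.307), and Il1b and Tnf differed by -0.48 ± 0.24 and -0.74 ± 0.28 without passing. Il1a, chosen after its values were seen, had the largest difference that did not pass, from 2.56 and 3.47 to 5.05, 7.16 and 7.81 (3.66 ± 0.92, adjusted p = 0.0526).

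Of 31 chemokine genes 3 rose and 2 fell. Ccl22, which attracts CCR4-bearing T cells, rose from 5.14 and 6.05 to 8.64, 8.41 and 8.42 (2.89 ± 0.31, adjusted p = 0.000882), whereas Ccl17, the other CCR4 ligand, was 5.08 and 4.89, then 5.71, 5.87 and 5.89 (0.84 ± 0.34, adjusted p = 0.238). Cxcl2, a neutrophil attractant, rose by 2.55 ± 0.47 and Cxcl16, a membrane-bound CXCR6 ligand, by 1.43 ± 0.20. The chemokines Ccl3 and Ccl4 were among the brightest genes before treatment and fell. Ccl3 went from 12.63 and 12.74 to 10.94, 11.02 and 10.48 (-1.87 ± 0.19, adjusted p = 0.0006), and Ccl4 from 11.73 and 11.61 to 9.34, 9.71 and 9.58 (-2.13 ± 0.40). Among 15 ligands of the TNF and Notch families, Tnfsf4 (OX40 ligand, which costimulates helper T cells) rose from 3.85 and 4.32 to 6.35, 7.39 and 7.33 (2.94 ± 0.46), and Tnfsf8 (CD30 ligand) fell by 1.19 ± 0.24 on the log2 scale. Of the 10 cytokine and chemokine calls named, those of Ccl22 and Ccl3 survived the loss of WT untreated 1; the other 8 did not (adjusted p from 0.051 to 0.294). Without WT untreated 2 the calls of Ltb, Cxcl2, Ccl4 and Tnfsf8 were lost (0.111 to 0.214), and that of Ltb also without any 1 of 6 other arrays (0.0532 to 0.138). Without WT SRBC 1 or without Notch2-11cKO SRBC 3, 6 cytokine genes were called.

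Receptors by which cells sense cytokines rose more often than they fell: 9 of 49 were higher and 1 lower, a share of 20.4% beside 3.79% of all genes, with a median difference of 0.09. Il7r, the interleukin-7 receptor chain that also serves TSLP, was the most even, at 6.45 and 6.32 untreated and 9.02, 9.14 and 9.01 after SRBC (2.67 ± 0.18, adjusted p = 7.29e-05). Il2ra (CD25) went from 4.63 and 4.0 to 7.48, 6.29 and 6.33 (2.38 ± 0.33), and Fas, the death receptor, from 4.62 and 4.87 to 8.83, 6.69 and 6.99 (2.76 ± 0.50). WT SRBC 1 was the highest array for both, as it was for Tnfrsf4 (OX40), which rose from 5.44 and 5.34 to 8.19, 7.40 and 7.72 (2.38 ± 0.24, adjusted p = 0.0006). Tnfrsf9 (4-1BB) rose by 1.78 ± 0.31, Il21r by 1.40 ± 0.22, Il4ra by 1.34 ± 0.20 and the GM-CSF receptor chain Csf2rb2 by 1.32 ± 0.27. Outside the naming rule, Il15ra rose by 1.96 ± 0.45 and Il10ra fell by 1.47 ± 0.36 on the log2 scale, while Il15 itself was 4.32 and 4.12, then 7.41, 3.79 and 4.65, so that only WT SRBC 1 stood out. The calls of Il15ra and Il10ra were lost under 6 and 8 of the 10 omissions (adjusted p from 0.0528 to 0.347). The list held 3 calls without WT untreated 1 and 4 without WT untreated 2. The calls of Fas, Tnfrsf9 and Csf2rb2 were lost without either (adjusted p from 0.0513 to 0.255, a range that also holds Il21r and Il4ra without WT untreated 1 and Il2ra without WT untreated 2), and that of Csf2rb2 without WT SRBC 2 or 3 (0.067 and 0.0617).

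Downstream of those receptors, 4 of 24 genes of the SOCS, JAK and STAT list rose and 3 fell (29.2% called, beside 3.79% of all genes). Cish, a STAT5 target that blocks STAT5 docking, rose from 4.21 and 3.72 to 4.85, 4.85 and 5.11 (0.97 ± 0.20, adjusted p = 0.023), next to the much larger rise of Socs2 above. Socs3 (0.71 ± 0.22, adjusted p = 0.11), Stat5a (0.66 ± 0.24, adjusted p = 0.173) and Socs1 (0.08 ± 0.13, adjusted p = 0.839) did not pass. Stat4, which relays IL-12 signals, rose from 7.67 and 7.69 to 9.92, 10.68 and 10.76 (2.77 ± 0.52), and the phosphatase Ptpn2 by 1.05 ± 0.17. Stat2, of the interferon-activated ISGF3 complex, fell from 7.72 and 7.89 to 6.56, 6.88 and 6.76 (-1.07 ± 0.22), the phosphatase Ptpn6 (SHP-1) fell by 1.07 ± 0.22 and the repressor Bcl6 by 1.55 ± 0.36 on the log2 scale. Apart from that of Socs2, none of the 7 calls survived the loss of either untreated array (adjusted p from 0.0572 to 0.252). Those of Cish, Stat4, Ptpn6 and Bcl6 were also lost without WT SRBC 2 or 3, that of Stat2 without WT SRBC 3 (0.0512 to 0.114), and that of Bcl6 without Notch2-11cKO untreated 1 or 2 or Notch2-11cKO SRBC 1 (0.0506 to 0.0619).

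The promoter of Cish is shown because it holds 2 copies of the STAT recognition pattern. The window runs from 250 bases before to 30 after the RefSeq start on GRCm38.p6, chr9:107296409-107296688, plus strand, 5′ to 3′, and capitals mark TTCNNNGAA, searched on both strands:
Cish: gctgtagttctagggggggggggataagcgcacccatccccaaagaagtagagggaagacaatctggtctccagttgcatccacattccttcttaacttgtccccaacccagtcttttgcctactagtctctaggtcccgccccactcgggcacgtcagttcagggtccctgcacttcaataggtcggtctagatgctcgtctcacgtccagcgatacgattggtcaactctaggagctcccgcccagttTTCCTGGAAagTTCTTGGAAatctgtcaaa
Counted with the start as base 1, the copies begin at bases 1 and 12. Over windows of 300 bases, 9.55% of the promoters of 27025 genes and 8.99% of those of the 15614 genes on the array held the pattern, as did 27 of the 297 genes called higher that have a listed promoter (9.09%) and 29 of the 301 called lower (9.63%). The shares among called genes were thus near that of all promoters.

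Of 23 genes of the NF-kB pathway, Tnip3, Map3k14 and Traf1 rose and Nfkbid fell (17.4% called, beside 3.79% of all genes). Tnip3, an A20-binding feedback inhibitor, was 3.49 and 4.05 untreated and 6.85, 6.97 and 7.32 after SRBC (3.28 ± 0.30, adjusted p = 0.000372), and its call survived each omission. Map3k14 (NIK, the kinase of the noncanonical branch) rose by 1.38 ± 0.30 and the adaptor Traf1 by 0.79 ± 0.17. Nfkbid, a nuclear inhibitor-like cofactor, fell from 9.22 and 9.10 to 7.96, 7.11 and 7.33 (-1.69 ± 0.33). No subunit passed, and Relb (0.51 ± 0.19, adjusted p = 0.174) and Nfkb2 (0.25 ± 0.17, adjusted p = 0.515) had all treated arrays slightly above the untreated ones, as did 17.8% of all genes. The 3 calls other than Tnip3 were lost without any 1 of WT untreated 1 and 2 and WT SRBC 2 and 3 (adjusted p from 0.0637 to 0.262), and that of Map3k14 without either Notch2-11cKO untreated array (0.0521 and 0.0522).

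Receptors that place cells in the spleen changed in a few members, with 3 of 30 higher and 1 lower. Cxcr5, which senses CXCL13 and draws cells to follicles, rose from 2.94 and 2.81 to 5.63, 5.61 and 6.17 (2.93 ± 0.21, adjusted p = 7.39e-05). Its untreated level was far below the median of all genes and its treated level above it. Xcr1, known as a receptor of type 1 conventional dendritic cells, rose from 4.42 and 3.81 to 4.95, 5.59 and 5.07 (1.09 ± 0.22). Gpr183, the oxysterol receptor that holds cDC2 at the bridging channels, was 10.49 and 10.36 and then 10.02, 9.91 and 9.76 (-0.53 ± 0.18, adjusted p = 0.134). Ptger3, a prostaglandin E2 receptor, fell from 5.87 and 6.49 to 4.76, 3.81 and 3.80 (-2.05 ± 0.28, adjusted p = 0.00292). Among 44 adhesion genes 4 rose and 4 fell. Flrt3 was followed by Sema7a, a membrane-anchored semaphorin (2.03 ± 0.27), Vcam1, a ligand of VLA-4 integrin (1.75 ± 0.25), and the laminin-binding integrin chain Itga6 (1.38 ± 0.20). Itgam (CD11b, a defining cDC2 surface protein) fell from 7.94 and 7.94 to 6.26, 6.43 and 6.79 (-1.44 ± 0.19, adjusted p = 0.00261), with falls of 0.82 ± 0.17 for Itgb3, 0.80 ± 0.17 for Pecam1 and 1.60 ± 0.39 for Jaml on the log2 scale. The omission of WT untreated 1 ended the calls of Ccr7, Xcr1, Sema7a, Vcam1, Itga6, Itgam, Itgb3, Pecam1 and Jaml (adjusted p from 0.0514 to 0.307), and that of WT untreated 2 those of Xcr1, Itgb3, Pecam1 and Jaml (0.111 to 0.239). Those of Xcr1 and Jaml were lost without WT SRBC 2 and those of Itgb3, Pecam1 and Jaml without WT SRBC 3 (0.0588 to 0.137), and that of Jaml was lost without 3 of the Notch2-11cKO arrays too (0.059 to 0.0745). Without WT SRBC 1, 7 positioning receptors and 13 adhesion genes were called.

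Regulators of actin and cell shape moved in both directions, with 6 of 32 higher and 5 lower (34.4%, median 0.09). Scin, an actin-severing protein, rose most, from 3.68 and 4.06 to 6.27, 7.78 and 7.48 (3.31 ± 0.49), and Fscn1, the bundling protein of dendrites, from 7.07 and 7.32 to 9.63, 8.60 and 8.86 (1.84 ± 0.28). Arhgap31, which switches off Cdc42 and Rac, rose by 1.49 ± 0.21 and Myo1g by 0.80 ± 0.15. Rac2, the GTPase restricted to blood cells, fell from 9.49 and 9.56 to 8.29, 7.72 and 8.20 (-1.45 ± 0.22), Myo1f by 1.34 ± 0.23 and Rhoh by 1.03 ± 0.20 on the log2 scale. Dnal1, an axonemal dynein light chain, fell from 6.95 and 7.42 to 4.86, 4.13 and 4.03 (-2.84 ± 0.29, adjusted p = 0.000641). Myo1g and Myo1f, both class I myosins of blood cells, thus differed in direction. The list held 2 calls without WT untreated 1, 3 without WT untreated 2 and 6 without WT SRBC 2; of the 8 genes named here only Dnal1 was called under all omissions, and adjusted p for the others lay between 0.0527 and 0.217 where their calls were lost.

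Genes of MHC class II presentation were lower where they changed. Of 18 measured members none rose and 4 fell (22.2% called, beside 3.79% of all genes). The median difference was -0.36, and 16 of the 18 differences were below 0, beside 9088 of all 19938. Ciita, the master activator of class II transcription, fell from 8.84 and 8.84 to 7.84, 6.58 and 6.70 (-1.80 ± 0.37, adjusted p = 0.0233), and H2-DMa, a chain of the peptide-loading DM complex, from 10.08 and 9.97 to 9.02, 8.49 and 8.71 (-1.29 ± 0.19, adjusted p = 0.00438). H2-Ea fell by 1.08 ± 0.23 and H2-Oa, of the DO complex that restrains DM, by 0.90 ± 0.21 on the log2 scale. The abundant chains did not pass: H2-Ab1 was 12.28 and 12.38, then 12.09, 12.34 and 12.29 (-0.09 ± 0.15, adjusted p = 0.817), with overlapping groups, and Cd74, the invariant chain, was 12.42 and 12.43, then 11.91, 12.15 and 12.11 (-0.37 ± 0.13, adjusted p = 0.178). None of 15 class I genes passed in limma's test, and their median difference was 0.05. No class II call survived the loss of WT untreated 1 (adjusted p from 0.0932 to 0.353), and 1, 2 and 1 did so without WT untreated 2, WT SRBC 2 and WT SRBC 3 (lost calls at 0.0728 to 0.154); H2-Oa was also lost without 3 of the Notch2-11cKO arrays (0.0559 to 0.0597).

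C-type lectins and innate sensors split by member. Of 29 endocytic lectins 4 rose and 3 fell (24.1% called, beside 3.79% of all genes). Beside Ly75, Clec7a (Dectin-1, the beta-glucan receptor) rose from 7.90 and 8.34 to 9.13, 9.40 and 9.28 (1.15 ± 0.22), Clec1b by 1.27 ± 0.25 and Clec1a by 0.80 ± 0.14. Cd209a, the mouse DC-SIGN homologue, fell from 8.53 and 8.33 to 6.90, 6.45 and 6.46 (-1.83 ± 0.21, adjusted p = 0.00112), Clec4a1 by 1.41 ± 0.26 and Clec4a2 by 1.14 ± 0.17 on the log2 scale, while Clec4a4 (DCIR2, a cDC2 marker) was 7.71 and 8.13, then 6.33, 7.06 and 6.93 (-1.15 ± 0.32, adjusted p = 0.078). These 3 genes of the DCIR family thus had every treated array below every untreated array, as did every gene called lower and 15.7% of all genes. Of 23 pattern receptors 1 rose and 3 fell: Cd14, the lipopolysaccharide coreceptor, rose from 4.98 and 5.90 to 6.86, 8.42 and 9.08 (2.68 ± 0.60), and Nod1, a cytosolic peptidoglycan sensor, fell from 9.0 and 8.90 to 7.54, 6.55 and 6.91 (-1.95 ± 0.27), with Ddx58 (RIG-I) at -1.32 ± 0.24 and the DNA sensor Tlr9 at -0.84 ± 0.17. Ly75 and Cd209a held under each omission. Without WT untreated 1 or 2 the calls of Clec1a, Clec1b, Clec7a, Clec4a2, Clec4a1, Cd14 and Tlr9 were lost, as was that of Nod1 without the first and of Ddx58 without the second (adjusted p from 0.0559 to 0.315); WT SRBC 2 or 3 ended those of Clec7a, Clec4a1, Cd14 and Tlr9, and WT SRBC 3 that of Clec1b (0.0517 to 0.102). Without WT SRBC 1, 8 pattern receptors were called.

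Of 49 transcription factors of dendritic cell development 4 rose and 4 fell, with a median of 0.09. Spic, known from iron-recycling macrophages, rose from 6.24 and 7.02 to 7.86, 9.10 and 9.25 (2.11 ± 0.42), Nfil3 from 8.61 and 9.21 to 10.10, 10.22 and 10.25 (1.28 ± 0.21), Irf8, the factor of type 1 cells, by 1.42 ± 0.33 and Id2 by 0.85 ± 0.17. Bcl11a fell most, from 9.41 and 9.30 to 7.84, 6.84 and 6.82 (-2.19 ± 0.36, adjusted p = 0.00722), with Bcl6 described above, and the lymphoid factors Ikzf1 and Ikzf3 fell by 1.04 ± 0.22 and 0.61 ± 0.13 on the log2 scale. The cDC2 factor Irf4 was 8.68 and 8.71, then 8.06, 8.78 and 8.37 (-0.30 ± 0.36, adjusted p = 0.753), with overlapping groups, and Zbtb46, which marks conventional dendritic cells, was 6.30 and 6.67, then 7.12, 7.0 and 7.19 (0.61 ± 0.20, adjusted p = 0.117). All 8 of these calls were lost without WT untreated 1, with adjusted p from 0.0906 to 0.391 over the genes of this and the next group; 2, 3 and 3 of the 8 were called without WT untreated 2, WT SRBC 2 and WT SRBC 3, and that of Irf8 was lost without any 1 of 7 arrays (0.0538 to 0.0645 without WT SRBC 1 or a Notch2-11cKO array).

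Genes that mark the Notch2-dependent, ESAM-high cDC2 subset were lower where they changed. Of 7 measured, Cd4, Dtx1 and Jaml fell and none rose (median -1.15). Cd4 was 8.27 and 8.19 untreated and 6.90, 7.08 and 6.76 after SRBC (-1.32 ± 0.20, adjusted p = 0.00508), and Dtx1, a Notch target, was 8.58 and 7.64, then 7.15, 6.27 and 6.63 (-1.43 ± 0.30). Of 17 Notch pathway genes Dtx1 and Hes1 fell. Hes1, the repressor that Notch induces, went from 7.67 and 7.14 to 5.50, 5.29 and 5.17 (-2.09 ± 0.23, adjusted p = 0.00108), whereas Esam itself was 5.96 and 5.84, then 6.0, 5.37 and 4.61 (-0.57 ± 0.30, adjusted p = 0.374), and Notch2 8.11 and 8.14, then 7.58, 7.09 and 7.09 (-0.87 ± 0.24, adjusted p = 0.0735). Of 12 ESAM-low genes, Cd14 and the scavenger receptor Cd36 (2.06 ± 0.34) rose and Cd209a fell. Only the calls of Hes1 and Cd209a among these held without each array: Cd4, Dtx1, Jaml, Cd14 and Cd36 were lost without WT untreated 1, Cd4, Jaml and Cd14 without WT untreated 2, and Dtx1, Jaml and Cd14 without WT SRBC 2 or 3. Where lost, adjusted p was 0.0535 to 0.0906 for Cd4, 0.0772 to 0.291 for Dtx1, 0.059 to 0.307 for Jaml, 0.0973 to 0.315 for Cd14 and 0.129 for Cd36.

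Cytosolic and mitochondrial heat shock chaperones held the largest falls of the response. Of 34 measured members 12 fell and 2 rose (41.2% called, beside 3.79% of all genes), with a median of -0.54. Hsph1 (HSP110, a nucleotide exchange factor for HSP70) was 11.26 and 10.81 untreated and 6.23, 6.39 and 6.40 after SRBC (-4.69 ± 0.25, 25.9-fold lower, adjusted p = 9.14e-06). Hspa1a (inducible HSP70) was 11.41 and 11.27, then 7.13, 6.62 and 6.98 (-4.43 ± 0.54, 21.5-fold lower, adjusted p = 0.00172), and Dnajb1 (HSP40, which feeds clients to HSP70) was 9.70 and 9.18, then 6.46, 6.07 and 6.48 (-3.10 ± 0.30). The untreated arrays were high and the treated arrays low and close together for all 3. Other members fell less: Hsp90aa1, an HSP90 gene, from 12.37 and 12.28 to 10.73, 11.07 and 10.97 (-1.40 ± 0.14, adjusted p = 0.000536), Hspa8 by 0.76 ± 0.13, and the mitochondrial chaperonin pair Hspd1 and Hspe1 by 1.13 ± 0.19 and 1.03 ± 0.17 on the log2 scale. Of 18 J proteins and cochaperones 6 fell. Hsf2, a heat shock transcription factor, went the other way, from 6.18 and 6.10 to 8.65, 8.59 and 8.64 (2.49 ± 0.27, adjusted p = 0.000975), as did the testis-rich HSP70 gene Hspa2, named outside the rule (1.25 ± 0.29), whose call was lost under 7 of the 10 omissions (adjusted p from 0.0509 to 0.297). The list held 5 calls without WT untreated 1 and 6 without WT untreated 2; those of Hspa8, Hspd1 and Hspe1 were lost in both cases (adjusted p from 0.0628 to 0.144), and Hsph1, Hspa1a, Dnajb1, Hsp90aa1 and Hsf2 were called under each omission. Digestion and sorting, which can induce chaperones and immediate-early genes in cells taken from tissue, were shared by the groups, and their part in these differences was not tested.

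Promoters of 4 of the chaperones that fell are shown because the heat shock element, inverted repeats of GAA, can be read in them. Hsph1 has 2 listed starts, and the window shown for it is that with the most matches. Each window runs from 250 bases before to 30 after a RefSeq start (GRCm38.p6), 5′ to 3′ on the gene's strand: Hsph1 at chr5:149636286-149636565 (minus), Hspa1a at chr17:34972127-34972406 (minus), Hspe1 at chr1:55087898-55088177 (plus) and Chordc1, an HSP90 cochaperone named outside the rule, at chr9:18292017-18292296 (plus). Capitals mark GAANNTTC, TTCNNGAA and the element of 3 units, which is GAANNTTC followed after any NN by GAA, on either strand, and these patterns overlap each other:
Hsph1: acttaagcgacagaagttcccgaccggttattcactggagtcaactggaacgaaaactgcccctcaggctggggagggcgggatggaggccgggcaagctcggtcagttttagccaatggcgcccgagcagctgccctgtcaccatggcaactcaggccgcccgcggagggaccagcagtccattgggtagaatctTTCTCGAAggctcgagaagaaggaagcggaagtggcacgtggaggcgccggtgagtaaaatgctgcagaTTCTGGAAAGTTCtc
Hspa1a: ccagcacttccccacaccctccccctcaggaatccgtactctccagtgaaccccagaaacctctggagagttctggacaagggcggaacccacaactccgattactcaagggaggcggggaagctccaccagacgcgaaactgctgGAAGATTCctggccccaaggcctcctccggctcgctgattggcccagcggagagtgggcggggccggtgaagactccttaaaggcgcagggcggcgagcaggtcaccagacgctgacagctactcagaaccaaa
Hspe1: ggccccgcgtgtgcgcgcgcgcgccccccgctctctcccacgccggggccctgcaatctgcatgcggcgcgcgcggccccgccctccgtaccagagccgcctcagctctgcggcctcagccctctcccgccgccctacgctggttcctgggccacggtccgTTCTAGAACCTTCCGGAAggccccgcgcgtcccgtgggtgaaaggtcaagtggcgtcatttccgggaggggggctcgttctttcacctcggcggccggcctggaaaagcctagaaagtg
Chordc1: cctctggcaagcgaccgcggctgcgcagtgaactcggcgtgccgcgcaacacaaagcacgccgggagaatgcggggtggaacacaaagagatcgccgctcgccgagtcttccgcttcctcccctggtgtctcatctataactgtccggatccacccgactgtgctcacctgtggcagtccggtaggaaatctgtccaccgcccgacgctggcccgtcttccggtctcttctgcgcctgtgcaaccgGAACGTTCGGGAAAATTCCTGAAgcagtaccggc
In windows of 300 bases the element of 3 units was found in 0.662% of the promoters of all 27025 genes and 0.564% of those of the 15614 genes on the array, in 0 of 297 genes called higher and in 5 of 301 called lower, 4 of which are chaperones (Hsph1, Hspd1, Hspe1 and Chordc1, of 10 chaperones called lower with a listed promoter). The shorter GAANNTTC was found in 9.04% of all promoters, 7.94% of those of array genes and 8 of those 10, and TTCNNGAA in 9.6%, 8.75% and 4 of the 10. Dnajb1, whose fall was the third largest, held neither GAANNTTC nor TTCNNGAA in its windows. The call of Chordc1 as lower was lost under 6 of the 10 omissions (adjusted p from 0.0507 to 0.219). A match is a description of these letters and not a measured site.

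Immediate-early genes, which respond within minutes to stimulation and to handling, had mostly lower values after SRBC, but few passed. Of 39 measured members 4 fell and 1 rose, while on 21 every treated array lay below every untreated array, against 15.7% of all genes, and the median difference was -0.60. Egr1 was 10.73 and 10.44 untreated and 8.39, 7.51 and 7.56 after SRBC (-2.76 ± 0.44, adjusted p = 0.00574), and Ier2 was 9.26 and 8.96, then 6.94, 7.66 and 7.66 (-1.69 ± 0.25). Fos differed by -2.08 ± 0.54 (adjusted p = 0.0591), with no overlap and treated arrays at 9.16, 7.42 and 7.55, Jun was 11.35 and 11.14, then 10.17, 9.47 and 9.42 (-1.56 ± 0.39, adjusted p = 0.0505), and Nr4a1 was 12.03 and 12.04, then 11.24, 10.33 and 10.12 (-1.47 ± 0.55, adjusted p = 0.189). For Egr1, Fos, Jun and Nr4a1 WT SRBC 1 lay between the untreated arrays and the other treated ones. Egr2 (-1.66 ± 0.41) and the phosphatase Dusp1 (-0.73 ± 0.16) fell, and Dusp5 rose by 0.98 ± 0.18. Without WT SRBC 1, 12 members were called (11 lower), and without Notch2-11cKO SRBC 3 11 were. With WT untreated 1 left out none was, and without WT untreated 2 only Ier2 was (lost calls at 0.0535 to 0.302, a range that includes Atf4 and Dnajb9 below); without WT SRBC 2 or 3 the calls of Egr2 and Dusp1 were lost, with that of Dusp5 for WT SRBC 2 (0.0504 to 0.145), and those of Egr2 or Dusp1 without 3 Notch2-11cKO arrays as well (0.0505 to 0.0777).

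Genes of the endoplasmic reticulum stress response moved less. Of 27 measured members 2 fell and none rose, with a median of -0.46: Atf4, the factor of the integrated stress response, went from 9.66 and 9.47 to 8.78, 8.86 and 8.73 (-0.78 ± 0.16), and Dnajb9, an HSP40 of the reticulum, from 9.81 and 9.81 to 9.02, 9.04 and 9.02 (-0.78 ± 0.19). Both calls were lost without any 1 of WT untreated 1 and 2 and WT SRBC 2 and 3, that of Dnajb9 also without Notch2-11cKO SRBC 1 (0.0575), and 4 members were called without WT SRBC 1.

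**Figure D4:**
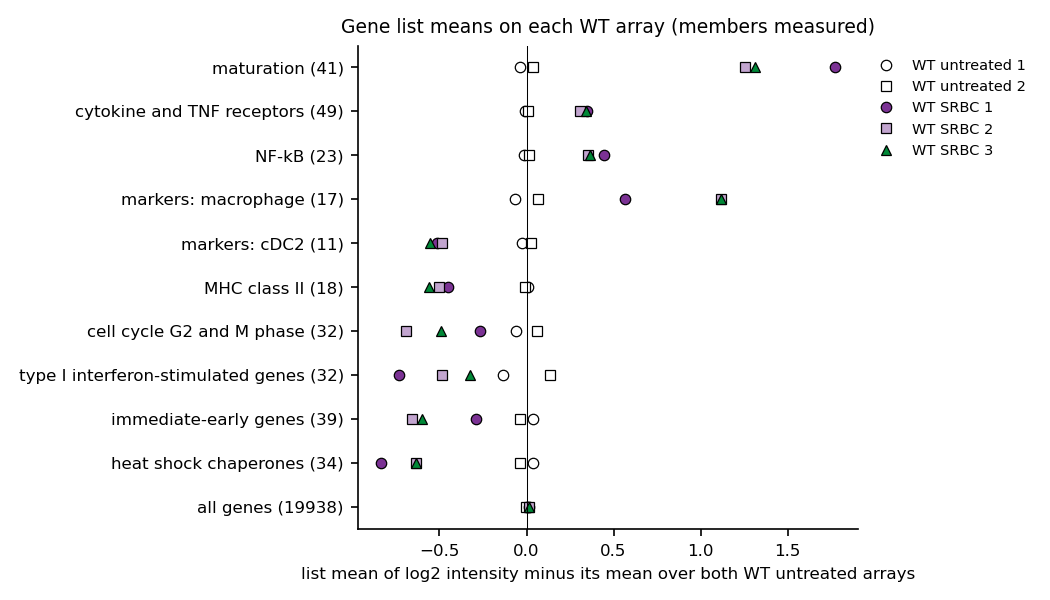
The x axis is the mean log2 intensity of a gene list on each WT array minus the mean of that value over both untreated arrays, for 10 lists and all genes (members measured in parentheses). The SRBC arrays lie right of both untreated arrays for the top 4 lists and left of them for the next 6; WT SRBC 1 is furthest right for maturation and nearest to the untreated arrays for macrophage markers and immediate-early genes.

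Of 20 circadian clock genes 3 rose and 1 fell. Ciart, a repressor of the CLOCK and BMAL1 activator pair, was 7.55 and 7.63 untreated and 5.14, 4.57 and 4.53 after SRBC (-2.84 ± 0.25, adjusted p = 0.000278). Rora, an activator of Bmal1 transcription, rose from 5.75 and 5.91 to 7.17, 7.64 and 7.36 (1.57 ± 0.21), Nfil3 by 1.28 ± 0.21 and the deubiquitinase Usp2 by 1.10 ± 0.24. Per1 was 9.68 and 9.61, then 8.98, 8.26 and 8.05 (-1.22 ± 0.42, adjusted p = 0.149), while Dbp (-0.30 ± 0.16, adjusted p = 0.382) and Nr1d1 (0.04 ± 0.27, adjusted p = 0.965) showed no comparable difference. The labels give no hour of day at which the mice were taken. The calls of Rora, Nfil3 and Usp2 were lost without WT untreated 1 (adjusted p from 0.0652 to 0.194) and that of Usp2 without WT untreated 2 (0.207) or WT SRBC 2 or 3 (0.0857 and 0.0835). The promoter of Ciart (250 bases before to 30 after the RefSeq start, GRCm38.p6, chr3:95882199-95882478, minus strand, 5′ to 3′) is shown because it holds 3 copies of the E-box CACGTG, the pattern that CLOCK and BMAL1 bind, in capitals:
Ciart: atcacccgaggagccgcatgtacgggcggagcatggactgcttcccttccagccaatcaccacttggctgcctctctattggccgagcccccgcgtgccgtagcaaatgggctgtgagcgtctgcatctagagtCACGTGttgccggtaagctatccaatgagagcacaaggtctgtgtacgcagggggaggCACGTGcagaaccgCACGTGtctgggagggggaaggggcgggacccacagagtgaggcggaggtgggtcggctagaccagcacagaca
The copies begin 116, 58 and 44 bases before the start. In windows of 300 bases, 8.09% of the promoters of all 27025 genes and 9.5% of those of the 15614 genes on the array held at least 1 copy, as did 14% of the genes called lower and 12.5% of those called higher.

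Type I interferon-stimulated genes were lower where they changed. Of 32 measured members 5 fell and none rose, and 17 had every treated array below every untreated one, against 15.7% of all genes (median -0.49). Oas2, an activator of RNase L, went from 8.03 and 8.58 to 6.50, 5.97 and 6.25 (-2.07 ± 0.27, adjusted p = 0.00249), Ddx58 from 7.48 and 8.07 to 6.26, 6.51 and 6.59 (-1.32 ± 0.24), Usp18 by -1.25 ± 0.24, Stat2 by -1.07 ± 0.22 and Xaf1 by -1.01 ± 0.21. Ifit1, chosen after its values were seen, varied among the treated arrays more than between groups, at 5.26 and 5.48 untreated and 4.28, 6.54 and 6.92 after SRBC. Of 19 killer lectin-like and related receptors, Klrk1 (NKG2D) rose by 1.11 ± 0.27, and Klrb1f, a C-type lectin of the NKR-P1 family, fell from 7.54 and 6.65 to 5.48, 4.56 and 4.58 (-2.22 ± 0.38), as did the SLAM family receptor Cd244a (-1.47 ± 0.25). Oas2 was called under each omission. The calls of Usp18, Stat2, Xaf1, Cd244a and Klrk1 were lost without either untreated array, that of Klrb1f without the first and of Ddx58 without the second (adjusted p from 0.0784 to 0.324); WT SRBC 2 or 3 ended those of Usp18 and Klrk1, and WT SRBC 3 that of Stat2 (0.0588 to 0.127), and Klrk1 was lost without 3 more arrays (0.0579 to 0.0692). Of the interferon-stimulated genes 2 were called without WT untreated 1, 1 without WT untreated 2 and 3 without WT SRBC 3, and 6 of the killer lectin-like receptors were called without WT SRBC 1.

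SRBC carry hemoglobin, and of 31 genes of heme and iron 2 rose and 3 fell. Slc7a11, the cystine importer that supplies glutathione synthesis, rose from 5.52 and 6.31 to 8.12, 8.35 and 8.43 (2.38 ± 0.48), and Spic is described above. Tfrc, the transferrin receptor by which cells import iron, fell from 8.0 and 7.88 to 6.97, 6.17 and 6.14 (-1.51 ± 0.24, adjusted p = 0.0064), the heme-sensing repressor Bach1 from 8.94 and 8.88 to 7.95, 7.82 and 7.69 (-1.10 ± 0.18) and Hfe, a partner of the transferrin receptor, by 1.05 ± 0.18 on the log2 scale. Hmox1, the heme-degrading oxygenase that Bach1 represses, was 7.34 and 7.44, then 7.03, 8.80 and 8.13 (0.60 ± 0.39, adjusted p = 0.503), with WT SRBC 1 below the untreated arrays. Of 23 lysosome genes 1 rose and 2 fell: Cd63, a tetraspanin of late endosomes and exosomes, was 8.49 and 8.56 untreated and 11.10, 11.09 and 11.23 after SRBC (2.61 ± 0.14, 6.11-fold, adjusted p = 9.14e-06), whereas the hydrolases Hexa and Ctsa fell by 1.14 ± 0.16 and 0.79 ± 0.17 on the log2 scale. Cd63 was called under each omission. The other 7 calls were lost without WT untreated 1 (adjusted p from 0.0792 to 0.254) and those other than Hexa without WT untreated 2 (0.0572 to 0.251), so no heme or iron gene was called in either case; Slc7a11, Spic and Ctsa were also lost without WT SRBC 2 or 3 (0.0587 to 0.0789), Ctsa without either Notch2-11cKO untreated array (0.0521 and 0.0522), and 9 heme and iron genes were called without WT SRBC 1.

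Of 32 genes of cholesterol and lipid handling 4 rose and 2 fell. All 13 genes grouped under efflux and uptake had differences above 0 (median 0.76), beside 10850 of all 19938 genes, and 2 passed. Ppargc1a, the coactivator of mitochondrial biogenesis, is grouped there but is not itself a gene of efflux or uptake. Its level rose from 4.18 and 4.49 to 6.12, 6.81 and 6.79 (2.24 ± 0.26, adjusted p = 0.00131). Cd36 rose from 4.18 and 4.69 to 6.24, 6.54 and 6.70 (2.06 ± 0.34). In sterol synthesis Hmgcs1 and Idi1 rose by 0.82 ± 0.19 and 0.89 ± 0.21, and Insig1, which holds back the SREBP transcription factors, fell from 9.66 and 8.94 to 7.14, 8.00 and 8.04 (-1.57 ± 0.33). Of 27 enzymes and carriers of eicosanoids, retinoids and amino acids 3 rose and 2 fell. Car2, a cytosolic carbonic anhydrase, was 5.28 and 5.31 untreated and 7.38, 7.35 and 7.55 after SRBC (2.13 ± 0.15, adjusted p = 7.29e-05). Alox5ap, which hands arachidonate to 5-lipoxygenase, fell from 10.49 and 10.56 to 9.21, 9.19 and 9.11 (-1.36 ± 0.18), and the amino acid carrier Slc7a5 by 0.95 ± 0.16 on the log2 scale. Ppargc1a, Car2 and Alox5ap were called under each omission. Cd36, Hmgcs1, Idi1, Insig1, Slc7a5 and Slc7a11 were lost without WT untreated 1 (adjusted p from 0.0702 to 0.353) and all of these but Cd36 without WT untreated 2 (0.0586 to 0.222); Hmgcs1, Idi1 and Slc7a11 were lost without WT SRBC 2 or 3 (0.0597 to 0.134), and Hmgcs1 and Idi1 without 3 of the Notch2-11cKO arrays (0.056 to 0.0709).

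Of 22 glycolysis genes 1 rose and 2 fell, with 11 differences above 0 and 11 below (median 0.03). Hk2 (hexokinase 2) fell from 7.29 and 7.64 to 5.91, 5.86 and 5.45 (-1.72 ± 0.27, adjusted p = 0.00602) and the glucose carrier Slc2a3 from 7.80 and 7.72 to 5.94, 6.57 and 6.72 (-1.35 ± 0.24), while Pfkfb3, which stimulates phosphofructokinase, rose by 1.14 ± 0.27. Without WT SRBC 1, 6 members were called. None of 24 genes of oxidative phosphorylation passed in limma's test (median 0.11). Few cell cycle genes passed, but most S, G2 and M phase genes had differences below 0. None of 26 S phase genes passed in limma's test, with 21 differences below 0 (median -0.14). Of 32 G2 and M phase genes Aurka, a mitotic kinase, fell by 0.96 ± 0.18 on the log2 scale (3.12% called, beside 3.79% of all genes). In this list 29 had a difference below 0 (median -0.48), beside 9088 of all 19938 genes. In 17 every treated array lay below every untreated one, against 15.7% of all genes. Of these 32 genes, 7 were called without WT SRBC 1 and 2 without Notch2-11cKO SRBC 3. Of 18 cell cycle inhibitors and cyclins 1 rose and 1 fell: Ccnd1 (cyclin D1) fell from 10.77 and 10.83 to 9.35, 9.14 and 8.89 (-1.67 ± 0.29), and Cdk6 rose by 0.94 ± 0.22. Of 22 apoptosis genes 4 rose and 1 fell: Fas, Cflar, an inhibitor of death receptor signalling (1.66 ± 0.39), the BH3 protein Bcl2l11 (1.33 ± 0.31) and Casp4 (0.87 ± 0.21) rose, and the pore-forming Bak1 fell by 0.99 ± 0.22 on the log2 scale. All 11 of these calls were lost without WT untreated 1 (adjusted p from 0.0601 to 0.404) and without WT untreated 2 (0.0821 to 0.226); those of Hk2, Slc2a3, Ccnd1 and Fas held under the other 8 omissions, and the rest were lost under some (0.0501 to 0.11).

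Markers of other cell types were followed for the same arrays. Of 17 macrophage markers 4 rose (C1qc, Spic, Vcam1 and Fcna), and 13 had every treated array above every untreated one, against 17.8% of all genes (median 0.89). The difference was above 0 for 16 of the 17. C1qc, a chain of the complement recognition molecule that spleen macrophages make, was 6.34 and 6.76 untreated and 7.58, 8.52 and 8.70 after SRBC (1.72 ± 0.31), whereas its partner C1qa was 5.14 and 5.26, then 5.68, 5.68 and 5.83 (0.53 ± 0.19, adjusted p = 0.164). The summed intensity of the 17 genes was 1112 and 1187 untreated and 1837, 2694 and 2713 after SRBC, so it was lowest in WT SRBC 1 among the treated arrays and higher there than in either untreated array. The 1 member with a difference below 0 was Adgre1 (F4/80, a macrophage surface protein), chosen after its values were seen, at 8.55 and 8.34, then 9.13, 7.86 and 7.89 (-0.15 ± 0.34, adjusted p = 0.881). No value in the files is at 0. Spic and Vcam1, described above, are members of this list, and the part of macrophage transcripts in those rises and in that of Cd36 was not tested. Of 36 Fc receptor, complement and engulfment genes C1qc and Cd36 rose and Elmo1, an activator of Rac in engulfment, fell by 0.88 ± 0.20 on the log2 scale; 8 were called without WT SRBC 1 and 7 without Notch2-11cKO SRBC 3, and the call of Elmo1 was lost under 7 of the 10 omissions (adjusted p from 0.0569 to 0.266).

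Of 11 cDC2 markers Itgam and Cd4 fell and none rose (median -0.37), and their summed intensity was 11251 and 11587 untreated and 9510, 9579 and 9165 after SRBC. Sirpa, another defining cDC2 protein, was 10.39 and 10.48, then 10.02, 9.51 and 9.63 (-0.72 ± 0.19, adjusted p = 0.0589). Of 12 markers of type 1 cells Xcr1, Irf8 and Cd8a (0.96 ± 0.21) rose and Wdfy4, needed for cross-presentation, fell by 0.97 ± 0.20 on the log2 scale. The summed intensity of the 12 was 1900 and 2029, then 1503, 1508 and 1551. Their median difference was 0.50, with 8 differences above 0 and 4 below, so the sum and the median differed in direction. Of 13 B cell markers Cd22 fell from 8.51 and 8.29 to 6.88, 6.50 and 6.31 (-1.83 ± 0.19, adjusted p = 0.000641) and Bank1 by 1.11 ± 0.22 on the log2 scale, and the sum went from 810 and 753 to 463, 472 and 464. Most of that decrease was Cd22, and the median difference of the 13 was -0.11. S100a8, a calcium-binding protein abundant in neutrophils, rose from 4.08 and 3.98 to 6.69, 6.50 and 7.46 (2.85 ± 0.46) and was the only one of 14 neutrophil markers to pass; their sum was 1908 and 2415, then 2003, 3535 and 3116. Of 10 erythroid markers the carbonic anhydrases Car1 (1.06 ± 0.26) and Car2 rose, with a sum of 262 and 279 untreated and 415, 436 and 433 after SRBC. Car2 alone made up most of that increase, and the median difference of the 10 was 0.10. The sum of 11 monocyte markers, none of which passed, was 6243 and 6483, then 4405, 2995 and 2928, while their median difference was -0.01. That list holds Nr4a1, the bright immediate-early gene described above, which makes up most of the untreated sums. Itgb3 was the 1 of 7 platelet markers and Pecam1 the 1 of 13 stromal and endothelial markers that fell. None of the 9 plasmacytoid, 13 T cell, 12 NK cell or 7 plasma cell markers passed in limma's test.

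Most marker calls needed both untreated arrays. Without WT untreated 1 those of C1qc, Vcam1, Spic, Fcna, S100a8, Bank1, Cd4, Itgam, Cd8a, Xcr1, Irf8 and Wdfy4 were lost (adjusted p from 0.0514 to 0.391), leaving Car2 and Cd22, and without WT untreated 2 those of C1qc, Spic, Fcna, S100a8, Bank1, Cd4, Cd8a, Xcr1 and Wdfy4 (0.0535 to 0.232). Without WT SRBC 2 or 3 several of Spic, Fcna, Bank1, Cd8a, Xcr1, Irf8 and Wdfy4 were lost (0.0588 to 0.0984), and without WT SRBC 1, 8 macrophage, 5 B cell and 3 neutrophil markers were called. The call of Car1 was lost under 8 of the 10 omissions (0.0666 to 0.384), and 2 neutrophil markers were called without Notch2-11cKO untreated 1 or 2 or Notch2-11cKO SRBC 3.

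Several of the largest falls belonged to none of these lists. Slc44a2, a choline carrier, went from 9.53 and 9.55 to 7.87, 7.57 and 7.32 (-1.95 ± 0.26, adjusted p = 0.00249), Tcof1, the nucleolar protein treacle, from 8.91 and 8.62 to 6.80, 6.82 and 6.65 (-2.01 ± 0.25), and Slc6a12, a betaine and GABA carrier, from 8.13 and 7.33 to 5.87, 5.57 and 5.44 (-2.10 ± 0.25). These 3 were called under each omission, and their treated arrays lay at least 1 log2 unit below the untreated ones. Rnd3 fell by 2.17 ± 0.34 on the log2 scale, Ffar2, a receptor for short-chain fatty acids, by 1.98 ± 0.34, the orphan receptor Gpr141 by 2.36 ± 0.47 and the transporter Abcg3 by 2.02 ± 0.47. The calls of Gpr141, Rnd3, Abcg3 and Ffar2 were lost without either untreated array (adjusted p from 0.0513 to 0.257), and those of Gpr141 and Abcg3 without WT SRBC 2 or 3 (0.0688 to 0.12); that of Abcg3 was lost without 3 of the Notch2-11cKO arrays too (0.0518 to 0.0638).

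The WT response was set against that of Notch2-11cKO cDC2 through the interaction, the Notch2-11cKO difference minus the WT difference. In 684 of the 756 genes called in WT the Notch2-11cKO difference had the same sign. The interaction passed for 4 of 19938 genes (0.0201%), and 3 of them were called in WT. Cd63 differed by 0.58 ± 0.14 in Notch2-11cKO against 2.61 ± 0.14 in WT (interaction -2.03 ± 0.20, adjusted p = 0.00526), Car2 by -0.13 ± 0.15 against 2.13 ± 0.15 (interaction -2.26 ± 0.21, adjusted p = 0.00526), and Hes1 by 0.42 ± 0.23 against -2.09 ± 0.23 (interaction 2.51 ± 0.33, adjusted p = 0.0486). The WT rises of Cd63 and Car2 and the WT fall of Hes1 thus differed from the Notch2-11cKO changes beyond the spread between arrays. In Notch2-11cKO none of these changes passed (adjusted p of 0.133 for Cd63, 0.843 for Car2 and 0.604 for Hes1). Those of Car2 and Hes1 had the opposite sign there. Rnase2a, named outside the rule, was the fourth, with no call in WT (adjusted p = 0.663). Without WT untreated 1 the interaction passed for no gene, without WT SRBC 1 for 44, without Notch2-11cKO untreated 1 for 1 and without Notch2-11cKO SRBC 3 for 7. With WT SRBC 1 and Notch2-11cKO SRBC 3, the SRBC arrays that stood apart, both left out the interaction passed for 604 genes, and 2300 were called in WT. Pearson r of Notch2-11cKO SRBC 3 with Notch2-11cKO SRBC 1 and 2 was 0.947 and 0.936, against 0.972 between those arrays. Both omitted arrays were picked from these same data, a choice that itself lowers the spread. The larger counts are therefore not evidence of more responding genes. Without WT untreated 1 adjusted p was 0.103 for Car2; the call of Cd63 was lost without WT untreated 1 or Notch2-11cKO untreated 1 (0.103 and 0.0841) and that of Hes1 under 8 of the 10 omissions (0.0538 to 0.441). For the other genes the difference between the genotypes did not pass, which does not show that their responses were alike: Tnip3 differed by 0.71 in Notch2-11cKO and Ccl22 by 0.45, against 3.28 and 2.89 in WT.

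**Figure D5:**
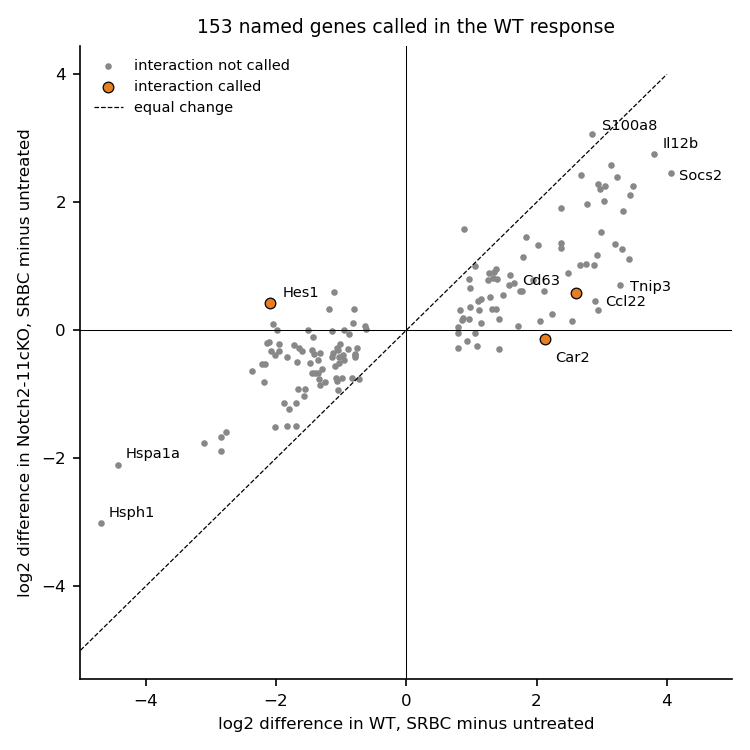
For 153 named genes called in WT, the x axis is the log2 difference of SRBC from untreated in WT and the y axis that in Notch2-11cKO, with a dashed line of equal change. Orange points passed the interaction test: Cd63 and Car2 lie below the line at 2.61 and 2.13 on the x axis, and Hes1 lies above it at -2.09.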

How the data were processed

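Sorted spleen cDC2 were measured on 10 one-colour arrays; the deposited table holds intensity on a linear scale for 28853 probe sets, normalized by the authors by a method not given in the sources used here, and labelling used the Ambion WT Expression kit, per the labels' protocols. Precision is limited by the number of arrays, and without detection p-values no gene was called above background. Analysis used log2 of each deposited intensity. Among probe sets 21789 had 1 gene symbol, 1621 several and 5443 none; each of 19938 genes was read from its brightest probe set (mean log2 over the 10 arrays). One limma fit (lmFit on 4 group means, then eBayes with trend; residual degrees of freedom 6, prior 5.25) gave the WT response and the interaction, two-sided, adjusted by Benjamini-Hochberg over all genes at 0.05. The fit was tested on simulated data.

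Genes named are the 20 largest rises and falls called with no overlap between arrays (leaving out clone and predicted genes, histones, small RNAs, segments of antigen receptors, Y-linked genes and XIST), up to 8 called members of each list with the smallest p, and key genes whatever their p; others were named after their values were seen. The 48 lists hold 1182 entries, of which 1096 were measured. The members and lists were chosen with earlier results of these data known. The labels name no pairing, and the replicate number was not taken as one. Deviations of same-numbered WT arrays correlated at 0.129 and 0.104, and those of WT untreated 2 and WT SRBC 3 at 0.103. With 2 untreated arrays, whose deviations mirror each other, this check cannot decide whether arrays were paired. Promoters came from RefSeq (GRCm38.p6; 15614 of the genes matched), and a gene counted for a pattern if any listed start held it. Software was limma 3.58.1 under R 4.3.3, and pandas 2.3.3, NumPy 2.4.6 and matplotlib 3.10.9 under Python 3.11.15.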

Additional observations from a re-analysis of the deposited data

Results flagged for a closer look

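3 genes called in WT were picked out because their SRBC responses differed between the genotypes in limma's interaction test. The interaction, Notch2-11cKO minus WT, was -2.03 for Cd63, -2.26 for Car2 and 2.51 for Hes1, with adjusted p of 0.00526, 0.00526 and 0.0486. Every treated WT array lay above both untreated WT arrays for Cd63 and Car2 and below both for Hes1, a separation that every gene called in WT showed. Groups held 2 or 3 arrays each, too few to look for single outlying arrays gene by gene.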

How the results depend on the processing

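With 1 array left out, the count of WT calls lay between 101 and 1331, of rises between 52 and 679 and of falls between 49 and 652, and the interaction passed for 0 to 44 genes. With both SRBC arrays that stood apart left out (WT SRBC 1 and Notch2-11cKO SRBC 3), 2300 genes were called in WT (1174 higher, 1126 lower) and 604 in the interaction. Those arrays were picked for standing apart in these same data, a choice that itself lowers the spread. Requiring a change of at least 2-fold left 482 calls, 250 higher and 232 lower. The interaction passed for 2 genes among those above the median level and for 7 with no mean-variance trend. With the replicate number as a block 715 genes were called in WT and 6 in the interaction. With only the WT arrays 559 were called, and the counts under quantile normalization, centring, genes above the median level, the mean of a gene's probe sets, no mean-variance trend and a robust variance were 779, 750, 920, 764, 901 and 769. Of 153 named calls 36 held whichever array was left out, 39 held without WT untreated 1 and 63 without WT untreated 2; 144 held under quantile normalization and 149 with centred arrays. Signal over background was not measured, so differences of dim genes such as Cxcr5 rest on levels whose floor is unknown.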
